A study of Mus musculus with 12 samples.

Results

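The cyclin-dependent kinase inhibitors were examined as the 3 CIP/KIP genes, Cdkn1a, Cdkn1b and Cdkn1c, and the 4 INK4 genes, Cdkn2a, Cdkn2b, Cdkn2c and Cdkn2d. They are the rows of those symbols in the 12 count files, 7 of 24015 gene rows. All 7 had counts in every library. Of these, 6 passed the filter on low counts and were among the 14356 genes tested, and Cdkn2d did not pass it.

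RNA was sequenced from embryoid bodies, the free-floating aggregates in which mouse embryonic stem cells begin to differentiate, to find genes that differ when Trim33 is lost. Trim33 is a chromatin-binding protein that takes part in TGF-beta family signalling. The 4 groups of 3 libraries were Trim33-deficient and control bodies on day 2.5, and Trim33-deficient and control bodies on day 2. Per the labels, all groups, the controls included, came from outbred stem cell lines of passages 8 to 10 with 2 copies of the Trim33-flox allele and with UbcCreERT2, a transgene for a tamoxifen-dependent Cre recombinase driven by the ubiquitin C promoter. The lines were kept in LIF and 2i with no feeders, and 4OH-tamoxifen on day 1 induced the deficiency. The genotype label of the control bodies reads wildtype, and the labels do not say whether tamoxifen was given to them too. The extract protocol mentions 3 independent pairs but does not tie the replicate numbers to the pairs, so p-values reflect library-to-library spread only, which may in part be technical.

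Cyclin-dependent kinases drive the cell cycle when bound to cyclins. CIP/KIP proteins bind complexes of several cyclins and kinases, whereas INK4 proteins bind CDK4 and CDK6 and keep them from cyclin D. Held-back kinases leave the retinoblastoma family unphosphorylated and E2F targets silent. Mouse embryonic stem cells are known for a short first gap phase and low levels of most of these inhibitors, which accumulate as cells differentiate.

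Libraries held 10066338 to 16529627 counts in genes. Trim33 fell to 54.4, 57.6 and 62.8 CPM in day 2.5 Trim33-deficient libraries, against 264, 247 and 239 CPM in control libraries, and to 60.5, 69.6 and 68.0 CPM in day 2 Trim33-deficient libraries, against 275, 261 and 277 CPM in control libraries. CPM values here are library-size-scaled counts (TMM). Some libraries stood apart. The ribosomal RNA precursor Rn45s made up 11.9% of the counts of day 2.5 control replicate 2 and 7.87% of those of day 2 Trim33-deficient replicate 1, with 0.609 to 1.67% elsewhere. The mean log2 level of 19 tested hypoxia and glycolysis genes, taken relative to the average library, was 0.46 in day 2.5 control replicate 2 and 0.77 in day 2 control replicate 2, with -0.41 to 0.11 elsewhere. Results that rest on these 3 libraries are given with and without them. Markers of pluripotent or early epiblast cells, all 8 detected, summed to 4322 to 6881 CPM across the 12 libraries. Endoderm markers summed to 33.1 to 51.1 CPM and feeder fibroblast markers to 27.6 to 50.9 CPM.

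Promoter sequences are shown for the 3 inhibitors with the largest rises on day 2.5, described further on. They come from RefSeq (GRCm38.p6), where 6 of the 7 genes matched with 9 start sites. Cdkn1c had no match, so its promoter was not searched. Sequences are read 5′ to 3′ on the gene's strand with the first transcribed base as position 1. The upstream start of Cdkn1a lies in chr17:29090729-29091008 on the plus strand, and capitals mark the full p53 site. Its downstream start lies in chr17:29093519-29093798, and capitals mark the GC box GGGCGG.
Cdkn1a upstream start: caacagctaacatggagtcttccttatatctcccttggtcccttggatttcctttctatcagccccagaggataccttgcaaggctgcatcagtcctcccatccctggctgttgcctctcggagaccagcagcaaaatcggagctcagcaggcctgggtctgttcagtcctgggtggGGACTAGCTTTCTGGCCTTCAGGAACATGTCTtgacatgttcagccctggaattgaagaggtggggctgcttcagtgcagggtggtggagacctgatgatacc
Cdkn1a downstream start: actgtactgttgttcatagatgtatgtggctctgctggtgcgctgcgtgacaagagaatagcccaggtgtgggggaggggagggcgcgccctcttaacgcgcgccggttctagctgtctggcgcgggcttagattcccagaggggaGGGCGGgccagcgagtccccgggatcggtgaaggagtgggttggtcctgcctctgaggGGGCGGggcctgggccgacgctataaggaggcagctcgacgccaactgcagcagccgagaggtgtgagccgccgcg
A full p53 site was defined as 2 copies of the p53 consensus decamer separated by at most 13 bases, on either strand. It matched in 24 of 32851 RefSeq promoter windows, 0.0731%, and among the 9 windows of the inhibitors only at position -73 of the upstream Cdkn1a start. Capitals cover both decamers and the spacer. The windows at the Cdkn1a starts also differed in composition. The upstream window of 300 bases had 2 CG dinucleotides and no GC box, and the downstream one had 23 CG dinucleotides and 2 GC boxes, against a median of 7 CG dinucleotides over all windows.

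Cdkn2a and Cdkn2b neighbour each other on chromosome 4. In the Cdkn2a windows, chr4:89294590-89294739 at the upstream start and chr4:89282163-89282312 at the downstream start, both on the minus strand, capitals mark GGGCGG and the E2F motif TTTCCCGC. In the Cdkn2b window, chr4:89311003-89311282 on the minus strand, they mark the SMAD box CAGAC or its reverse complement. They are shown because the single Cdkn2a row pools transcripts of both starts, the upstream one known for p19ARF and the downstream one for p16INK4a, and because Cdkn2b is a known TGF-beta target.
Cdkn2a upstream start: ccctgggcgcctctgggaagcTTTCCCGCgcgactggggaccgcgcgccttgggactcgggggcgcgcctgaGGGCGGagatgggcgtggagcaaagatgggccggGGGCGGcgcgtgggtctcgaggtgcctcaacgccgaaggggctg
Cdkn2a downstream start: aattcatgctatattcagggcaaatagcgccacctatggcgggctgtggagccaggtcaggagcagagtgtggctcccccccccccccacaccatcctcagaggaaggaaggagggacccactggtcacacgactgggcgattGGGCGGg
Cdkn2b start: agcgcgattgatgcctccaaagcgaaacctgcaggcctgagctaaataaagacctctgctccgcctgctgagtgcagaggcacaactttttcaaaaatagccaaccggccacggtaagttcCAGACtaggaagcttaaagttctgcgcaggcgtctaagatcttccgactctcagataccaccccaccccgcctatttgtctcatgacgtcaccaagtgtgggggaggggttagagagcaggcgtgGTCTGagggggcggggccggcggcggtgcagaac
TTTCCCGC matched at position -99 of the upstream Cdkn2a window and in 1.07% of all promoter windows. CAGAC matched 2 times in the Cdkn2b window and in 49.6% of all windows, and GGGCGG in 35.7% of all windows, both strands counted. CAGAC was not particular to Cdkn2b: it also matched 2 times in the Cdkn2d window, 1 time in each Cdkn1a window and 1 time in a Cdkn2c window. A Cdkn2c window also held CACGTG, and the Cdkn2d window a single p53 decamer. Of the other motifs searched, on both strands, TTTGGCGC was in 0.514% of all windows, CACGTG in 7.15%, TATAAA in 13.6%, TTGTTTAC in 1.23% and a single p53 decamer in 8.36%. These matches are letters in a window and were not measured as binding.

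Levels between the inhibitors were compared per kilobase of annotated exon (GENCODE vM21). Cdkn1a, which encodes p21, was the highest in all 4 groups, with 48.3 ± 4.77 CPM per kilobase in day 2.5 Trim33-deficient bodies, against 19.8 ± 4.10 in control bodies, and 33.8 ± 1.97 in day 2 Trim33-deficient bodies, against 20.4 ± 3.39 in control bodies (SD, n = 3 each). In day 2.5 Trim33-deficient bodies Cdkn1c came next with 12.9 ± 1.03 CPM per kilobase, then Cdkn2a with 10.6 ± 1.31, Cdkn1b with 8.49 ± 0.153 and Cdkn2b with 5.36 ± 0.490. In day 2.5 control bodies the order was Cdkn1b with 11.8 ± 2.63, Cdkn1c with 8.78 ± 0.961, Cdkn2a with 5.07 ± 0.712 and Cdkn2b with 1.89 ± 0.0848. Ranges of the 3 libraries overlapped between Cdkn1c and Cdkn1b in day 2.5 control bodies, and those between Cdkn2a and its neighbours Cdkn1c and Cdkn1b in day 2.5 Trim33-deficient bodies did not. In day 2 control bodies Cdkn1c was second with 15.8 ± 2.66 CPM per kilobase, and Cdkn1b followed with 9.63 ± 2.40, Cdkn2a with 6.72 ± 0.567 and Cdkn2b with 2.96 ± 0.327. Cdkn2c, which encodes p18, and Cdkn2d, which encodes p19INK4d, were lowest everywhere, with group means of 0.205 to 0.402 CPM per kilobase.

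**Figure D1:**
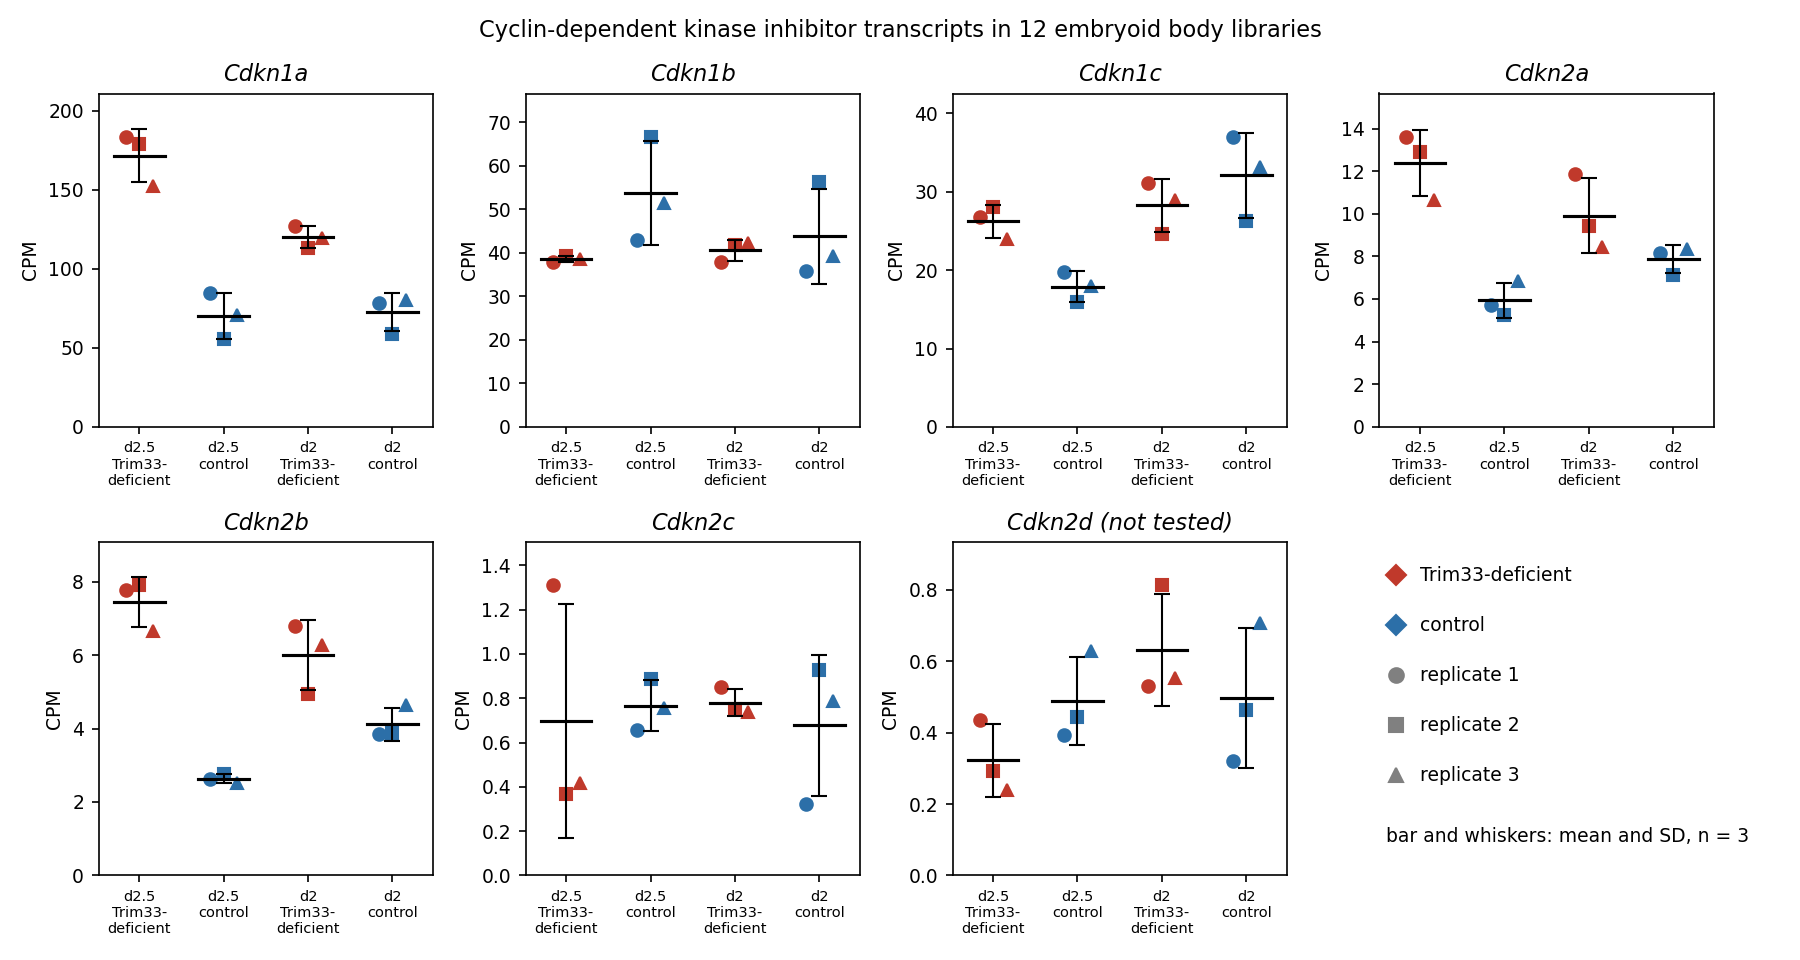
CPM (TMM-scaled, vertical axes from 0) of the 7 inhibitors in each library, with Trim33-deficient in red and control in blue, marker shape for the replicate, and mean and SD (n = 3) as bars. On day 2.5 the Trim33-deficient libraries of Cdkn1a sit between 152 and 184 CPM, all above the control libraries, and Cdkn2c and Cdkn2d stay near the bottom of what these libraries can measure.

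On day 2.5, loss of Trim33 was accompanied by more RNA of 4 inhibitors and less of 1. Cdkn2b, Cdkn1a, Cdkn2a and Cdkn1c rose and Cdkn1b fell, 5 of the 6 tested members, where 42.8% of all tested genes passed in either direction, 22% upward and 20.7% downward. The groups did not overlap in 5 of the 6, where this held for 53% of all tested genes, and 4 of these lay above the controls, where 26.7% of all tested genes did. The median log2 fold change of the 6 was 0.79, against -0.01 over all tested genes. In bulk libraries a change in how many cells express a gene and a change in RNA per cell cannot be told apart. Trophoblast markers moved with genotype on the same day: 7 of 10 tested rose and 1 fell, their summed level was 135 to 176 CPM in Trim33-deficient and 97.7 to 162 CPM in control libraries, and Elf5 was at 0 in both groups. Pluripotent or early epiblast markers summed to 4322 to 5050 CPM in Trim33-deficient and 5755 to 6540 CPM in control libraries. Of the 8, 1 rose and 4 fell. The sums mainly follow Dnmt3b, the most abundant, with means of 1884 CPM in Trim33-deficient and 3211 CPM in control bodies. Pou5f1 averaged 829 CPM in Trim33-deficient and 831 CPM in control bodies, and Sox2 206 and 163 CPM. Feeder fibroblast markers summed to 27.6 to 29.6 CPM in Trim33-deficient and 43.1 to 50.9 CPM in control libraries, with 1 of 6 tested rising, 4 falling and Postn at 0 in both groups. Endoderm markers summed to 35.5 to 37.3 CPM in Trim33-deficient and 39.6 to 51.1 CPM in control libraries, with 2 of 8 tested rising and 2 falling, Afp at 0 in the first and Ttr in the second. The part of these markers in the results was not tested.

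Among the CIP/KIP genes, Cdkn1a, which p53 and TGF-beta signalling are known to induce, had 184, 179 and 152 CPM in day 2.5 Trim33-deficient libraries, against 84.9, 55.7 and 70.8 CPM in control libraries. Every Trim33-deficient library was above every control library. The rise was 2.42-fold, 1.28 ± 0.15 on the log2 scale (SE; edgeR quasi-likelihood adjusted p = 8.33e-05). Its lowest control value, 55.7 CPM, was that of replicate 2, the library rich in Rn45s and high in hypoxia genes. Without all 3 libraries that stood apart the log2 fold change was 1.14 ± 0.09 (edgeR adjusted p = 5.61e-07).

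Cdkn1c encodes p57, the imprinted inhibitor expressed from the maternal copy and known to restrain growth of the embryo and placenta. It had 26.8, 28.02 and 23.9 CPM in day 2.5 Trim33-deficient libraries, against 19.8, 15.9 and 18.0 CPM in control libraries, and the groups did not overlap. The rise was 1.46-fold, 0.54 ± 0.13 on the log2 scale (edgeR adjusted p = 0.00292), and 0.47 ± 0.10 without the 3 libraries (edgeR adjusted p = 0.000593).

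Cdkn1b encodes p27, whose amount in cells is known to be set largely by protein degradation. Its RNA was at 38.0, 39.4 and 38.6 CPM in day 2.5 Trim33-deficient libraries, against 43.0, 66.6 and 51.5 CPM in control libraries. All Trim33-deficient libraries lay below the control libraries and within a narrow range, while the control libraries were spread out, highest in replicate 2. It fell by 0.47 ± 0.17 on the log2 scale, 1.38-fold (edgeR adjusted p = 0.0444). The call was lost without day 2.5 control replicate 2 (log2 fold change -0.28, edgeR adjusted p = 0.161) or replicate 3 (-0.50, edgeR adjusted p = 0.0738). It was also lost without day 2.5 Trim33-deficient replicate 1 (-0.46), 2 (-0.48) or 3 (-0.47), with edgeR adjusted p = 0.106, 0.0861 and 0.0925, and without the 2 libraries rich in Rn45s (-0.29, edgeR adjusted p = 0.174). Without all 3 libraries that stood apart it passed at -0.29 ± 0.08 (edgeR adjusted p = 0.00415).

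Among the INK4 genes, Cdkn2b encodes p15, a cytostatic target of TGF-beta in epithelial cells. It had 7.78, 7.90 and 6.67 CPM in day 2.5 Trim33-deficient libraries, against 2.63, 2.75 and 2.52 CPM in control libraries. Each group was tight and they lay far apart. The rise was 2.83-fold, 1.5 ± 0.17 on the log2 scale (edgeR adjusted p = 5.67e-06), the largest among the members, from 327 counts in the 3 Trim33-deficient libraries and 111 in the 3 control libraries.

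Cdkn2a, which encodes p16INK4a and, in another reading frame, the Mdm2-binding p19ARF, had 13.6, 12.9 and 10.7 CPM in day 2.5 Trim33-deficient libraries, against 5.71, 5.24 and 6.86 CPM in control libraries. The groups did not overlap. The rise was 2.06-fold, 1.04 ± 0.15 on the log2 scale (edgeR adjusted p = 6.86e-05). Which of the 2 products contributed cannot be read from a pooled row. Without the 3 libraries that stood apart the log2 fold changes were 1.53 ± 0.19 for Cdkn2b and 0.97 ± 0.14 for Cdkn2a (edgeR adjusted p = 1.34e-06 and 1.27e-05).

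Cdkn2c had 18, 5 and 7 counts in day 2.5 Trim33-deficient libraries, against 10, 10 and 12 in control libraries. The groups overlapped, the log2 fold change was -0.15 with a 95% interval of -1.12 to 0.82 (edgeR adjusted p = 0.819), and a change within that interval was not detectable at this depth. Cdkn2d, not tested, had 6, 4 and 4 counts in Trim33-deficient libraries, against 6, 5 and 10 in control libraries, with overlapping groups. The floor was set at 3 counts, which is 0.179 to 0.318 CPM depending on the library and covers counting error only.

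**Figure D2:**
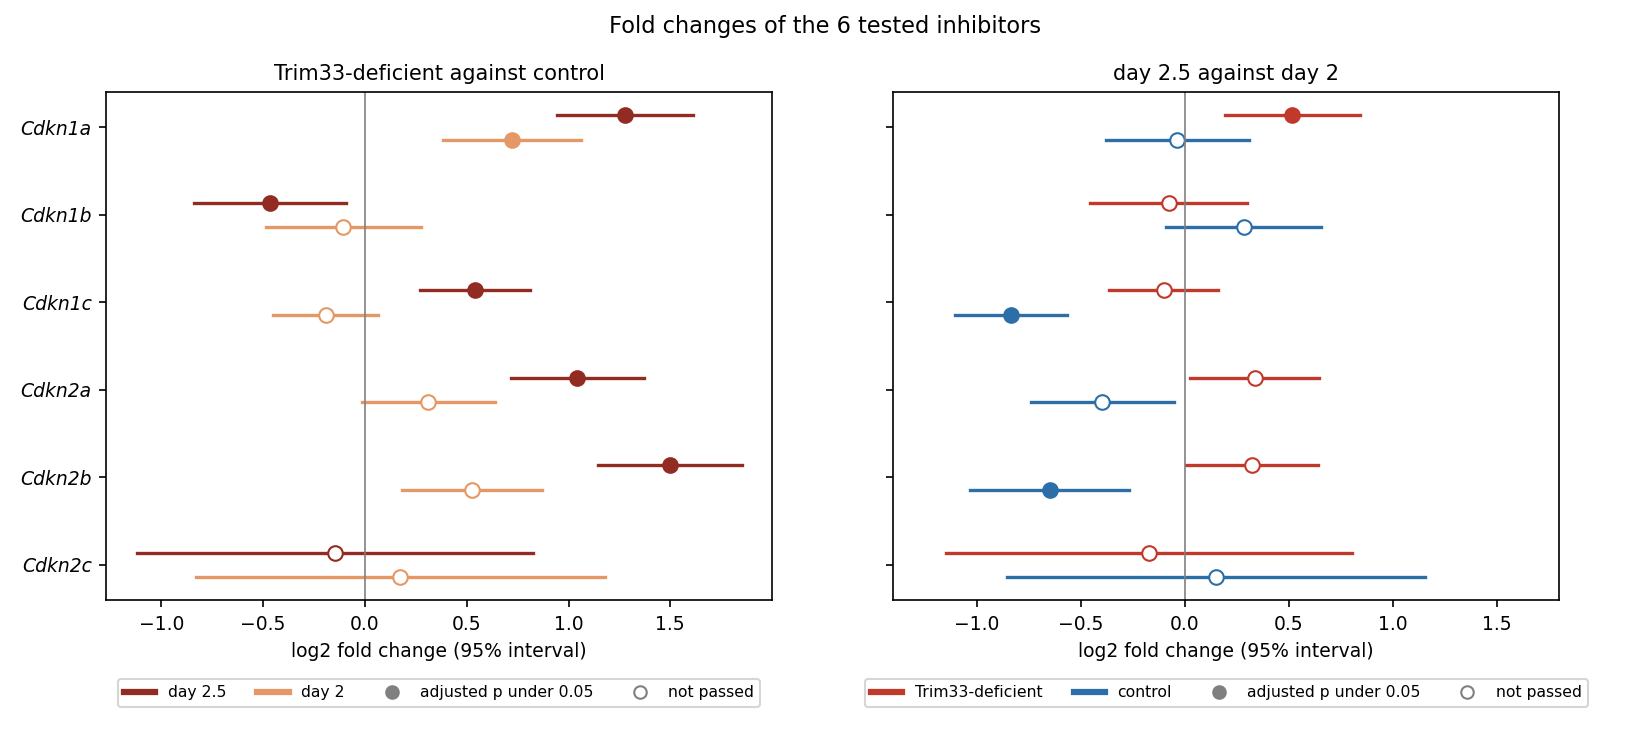
Log2 fold changes (horizontal axes) of the 6 tested inhibitors with 95% intervals from the edgeR fit, Trim33-deficient over control on day 2.5 and day 2 (left) and day 2.5 over day 2 in Trim33-deficient and control bodies (right). Filled points passed an adjusted p under 0.05. Cdkn1c, Cdkn2a and Cdkn2b lie below 0 over time in control bodies and near or above 0 in Trim33-deficient bodies, and the interval of Cdkn2c is wide throughout.

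On day 2, a day after induction, only Cdkn1a among the inhibitors passed, 1 of 6 tested members, where 9.84% of all tested genes passed in either direction, 5.94% upward and 3.9% downward. It had 127, 113 and 119 CPM in Trim33-deficient libraries, against 78.7, 58.7 and 80.3 CPM in control libraries, and the groups did not overlap. The rise was 1.65-fold, 0.72 ± 0.15 on the log2 scale (edgeR adjusted p = 0.0167). The lowest control value was again that of replicate 2, high in hypoxia genes, and without the 2 libraries high in those genes the log2 fold change was 0.60 ± 0.09 (edgeR adjusted p = 0.00130). Leaving out day 2 Trim33-deficient replicate 1 gave 0.68 (edgeR adjusted p = 0.0613). Trophoblast markers summed to 93.0 to 102 CPM in Trim33-deficient and 80.4 to 133 CPM in control libraries on this day, with 1 of 10 tested rising. Pluripotent or early epiblast markers summed to 5328 to 5651 CPM in Trim33-deficient and 6200 to 6881 CPM in control libraries. Of the 8, 2 fell. Dnmt3b averaged 2515 CPM in Trim33-deficient and 3478 CPM in control bodies, Pou5f1 873 and 937 CPM, and Sox2 216 and 198 CPM. Feeder fibroblast markers summed to 29.4 to 34.4 CPM in Trim33-deficient and 36.3 to 44.5 CPM in control libraries, with 1 of 6 tested falling. Endoderm markers summed to 33.1 to 36.4 CPM in Trim33-deficient and 34.5 to 38.7 CPM in control libraries. Their part in the day 2 result was not tested.

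For Cdkn2b and Cdkn2a the day 2 values were higher in Trim33-deficient libraries without passing. Cdkn2b had 6.79, 4.94 and 6.27 CPM in day 2 Trim33-deficient libraries, against 3.84, 3.87 and 4.64 CPM in control libraries, a log2 fold change of 0.53 ± 0.16 (edgeR adjusted p = 0.0515). Cdkn2a had 11.9, 9.44 and 8.42 CPM in Trim33-deficient libraries, against 8.17, 7.11 and 8.34 CPM in control libraries, 0.31 ± 0.15 on the log2 scale (edgeR adjusted p = 0.225). Neither pair of groups overlapped, though for Cdkn2a by a narrow margin. With Cdkn1a this makes 3 of 6 members without overlap, where 29.4% of all tested genes had none. Without day 2 Trim33-deficient replicate 2, Cdkn2b passed (0.66, edgeR adjusted p = 0.0363).

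Cdkn1c had 31.2, 24.6 and 29.0 CPM in day 2 Trim33-deficient libraries, against 37.0, 26.3 and 33.1 CPM in control libraries, with overlapping groups (log2 fold change -0.19 ± 0.12, edgeR adjusted p = 0.353). Cdkn1b had 37.9, 41.8 and 42.2 CPM in Trim33-deficient libraries, against 35.9, 56.3 and 39.3 CPM in control libraries, also overlapping (-0.11 ± 0.17, edgeR adjusted p = 0.757). In both genes the control library that stood apart from the other two was replicate 2, high in hypoxia genes. Without all 3 libraries that stood apart, Cdkn1c fell by 0.38 ± 0.10 on the log2 scale (edgeR adjusted p = 0.0187) and the value of Cdkn1b was 0.16 ± 0.09 (edgeR adjusted p = 0.251). In that fit 4 of 19 hypoxia and glycolysis genes rose and 1 fell, where 11.2% of all tested genes passed in either direction. The part of the hypoxia and glycolysis genes in the Cdkn1c value was not tested. Cdkn2c had 8, 12 and 12 counts in Trim33-deficient libraries, against 4, 12 and 10 in control libraries, and Cdkn2d had 5, 13 and 9 in Trim33-deficient libraries, against 4, 6 and 9 in control libraries. Both pairs of groups overlapped, and the 95% interval of the Cdkn2c log2 fold change ran from -0.83 to 1.18 (edgeR adjusted p = 0.859).

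Over time, from the same values, the inhibitors that passed in control bodies, Cdkn1c and Cdkn2b, both fell. Cdkn1c averaged 17.9 ± 1.96 CPM in control bodies on day 2.5 and 32.1 ± 5.42 CPM on day 2 (SD, n = 3 each). It fell by 0.84 ± 0.13 on the log2 scale (edgeR adjusted p = 0.000539) and passed under all 18 alternatives run. Cdkn2b averaged 2.63 ± 0.118 CPM on day 2.5 and 4.12 ± 0.455 CPM on day 2 and fell by 0.65 ± 0.18 (edgeR adjusted p = 0.0226). These were 2 of 6 tested members, where 16.1% of all tested genes passed, 7.91% downward and 8.2% upward. Leaving out day 2 control replicate 3 (-0.55, edgeR adjusted p = 0.105), day 2.5 control replicate 1 (-0.65, edgeR adjusted p = 0.0507) or replicate 3 (-0.62, edgeR adjusted p = 0.0775) ended the call of Cdkn2b. Cdkn2a averaged 5.94 ± 0.835 CPM on day 2.5 and 7.87 ± 0.664 CPM on day 2, with no overlap and no call (-0.40 ± 0.16, edgeR adjusted p = 0.110). In all, 3 of 6 members lay wholly below their day 2 values, where 15% of all tested genes did. Cdkn1a was at 70.5 ± 14.6 CPM on day 2.5 and 72.6 ± 12.03 CPM on day 2, and Cdkn1b at 53.7 ± 11.97 CPM on day 2.5 and 43.8 ± 10.9 CPM on day 2, neither passing. Without day 2 control replicate 2, Cdkn1b passed upward (0.50, edgeR adjusted p = 0.0229).

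In Trim33-deficient bodies the inhibitor that changed with time was Cdkn1a, upward. It averaged 172 ± 17.0 CPM on day 2.5 and 120.0 ± 6.996 CPM on day 2 (SD, n = 3 each), a rise of 0.52 ± 0.15 on the log2 scale (edgeR adjusted p = 0.0367). It was the 1 member of 6 tested that passed, where 16% of all tested genes did, 9.09% upward and 6.93% downward, and the 1 of these 6 without overlap between days, where 38.7% of all tested genes had none. Of 10 tested trophoblast markers 5 rose between these days, and the mean log2 level of the hypoxia genes was -0.28 to -0.22 in day 2.5 and 0.07 to 0.11 in day 2 Trim33-deficient libraries. Their part in the rise of Cdkn1a was not tested. The call did not hold without day 2 Trim33-deficient replicate 1, 2 or 3 (0.56, 0.48 and 0.51; edgeR adjusted p = 0.0548, 0.126 and 0.104), nor without day 2.5 Trim33-deficient replicate 1 or 2 (0.47 and 0.48; edgeR adjusted p = 0.117 and 0.109). Cdkn2a averaged 12.4 ± 1.54 CPM on day 2.5 and 9.91 ± 1.78 CPM on day 2 (0.34 ± 0.15, edgeR adjusted p = 0.131), and Cdkn2b 7.45 ± 0.681 CPM on day 2.5 and 5.999 ± 0.954 CPM on day 2 (0.32 ± 0.15, edgeR adjusted p = 0.157). Cdkn1c averaged 26.2 ± 2.10 CPM on day 2.5 and 28.3 ± 3.37 CPM on day 2 (-0.10 ± 0.12, edgeR adjusted p = 0.620), and Cdkn1b 38.6 ± 0.695 CPM on day 2.5 and 40.6 ± 2.41 CPM on day 2 (-0.08 ± 0.17, edgeR adjusted p = 0.806). The groups of these 4 genes overlapped between days. Cdkn2d, not tested, had 6, 4 and 4 counts on day 2.5 (0.238 to 0.436 CPM) and 5, 13 and 9 counts on day 2 (0.530 to 0.813 CPM), without overlap in CPM and close to the floor of 3 counts. Without day 2 Trim33-deficient replicate 1, the library rich in Rn45s, Cdkn2a passed (0.47, edgeR adjusted p = 0.0455).

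The interaction asks whether the effect of Trim33 loss differed between the days. It was 0.97 ± 0.23 on the log2 scale for Cdkn2b and 0.73 ± 0.18 for Cdkn1c (edgeR adjusted p = 0.0320 for both), day 2.5 effect minus day 2 effect. These 2 of 6 members passed, where 4.01% of all tested genes did, 2.77% upward and 1.24% downward. Cdkn2a gave 0.73 ± 0.22 (edgeR adjusted p = 0.0679), Cdkn1a 0.55 ± 0.21 (edgeR adjusted p = 0.172) and Cdkn1b -0.36 ± 0.24 (edgeR adjusted p = 0.429), so a different effect on the 2 days was not shown for them. Both calls were lost, each time for both genes, without day 2.5 Trim33-deficient replicate 1 or 2, day 2.5 control replicate 2 or 3, day 2 Trim33-deficient replicate 2 or 3, or day 2 control replicate 1 or 3. The edgeR adjusted p was then 0.0505 to 0.103 for Cdkn2b, with values of 0.84 to 1.02, and 0.0597 to 0.101 for Cdkn1c, with values of 0.62 to 0.76. Leaving out other libraries added calls. Cdkn2a passed without day 2.5 Trim33-deficient replicate 3 (0.83, edgeR adjusted p = 0.0447), day 2 Trim33-deficient replicate 1 (0.86, edgeR adjusted p = 0.0240) or day 2 control replicate 2 (0.80, edgeR adjusted p = 0.0383). Without all 3 libraries that stood apart, Cdkn1a, Cdkn1c, Cdkn2a and Cdkn2b passed upward and Cdkn1b downward, 5 of 7 tested members. In that fit 13.4% of all tested genes passed.

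Within the groups, the libraries high in hypoxia and glycolysis genes were also extreme in the CIP/KIP genes. Replicate 2 of the control bodies was the lowest of its group in Cdkn1a and Cdkn1c and the highest in Cdkn1b on both days. As a description over 12 libraries, with group means removed, the hypoxia list correlated with Cdkn1b at r = 0.97, with Cdkn1a at -0.90 and with Cdkn1c at -0.80, and with Cdkn2a at -0.40 and Cdkn2b at -0.01. These values rest mainly on the 2 control libraries named. Among the members themselves, with group means removed, Cdkn1a and Cdkn1c went together (r = 0.88) and Cdkn1b went against both (r = -0.91 and -0.84). The part of hypoxia in the results was not tested beyond the fits without these libraries.

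**Figure D3:**
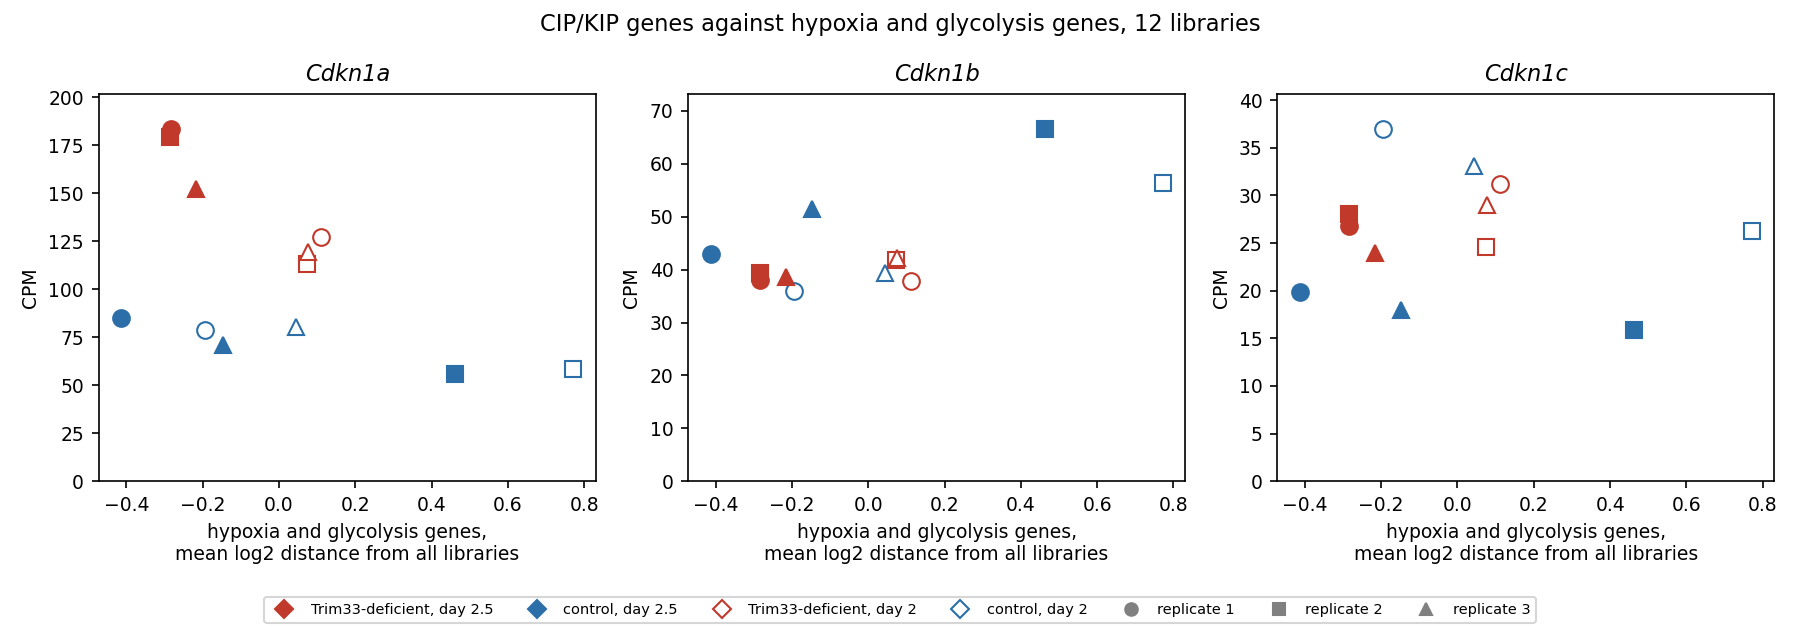
CPM (vertical axes from 0) of the 3 CIP/KIP genes against the mean log2 level of 19 hypoxia and glycolysis genes in each library, as the difference from the mean of all libraries (horizontal axes), with Trim33-deficient in red and control in blue, day 2.5 filled and day 2 open. The 2 control libraries at 0.46 and 0.77 are low in Cdkn1a and high in Cdkn1b among control libraries.

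Over all 12 libraries the closest followers of each member, by Pearson correlation of log2 CPM among other tested genes with a mean of at least 1 CPM, were Mcam, Ctu2 and Pmm1 for Cdkn1a (r = 0.99 for each), Mtus1, Zc3hav1 and Kcnk5 for Cdkn2b (0.99, 0.98 and 0.98), and Def6, Tecpr2 and Tgfbi for Cdkn2a (0.98, 0.97 and 0.97). Those of Cdkn1c were Gab1, Smpdl3b and Rpl10l (0.96, 0.95 and 0.95), and those of Cdkn1b were Nfatc4, Hrc and Strbp (0.98, 0.97 and 0.97). Cdkn2c reached 0.83 at most, with Gm6524. Cdkn2a and Cdkn2b followed each other at 0.93 over all libraries and at 0.39 with group means removed, and Cdkn1a followed Cdkn2a at 0.89 and 0.57. These values share the group differences and carry no test.

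The kinases and cyclins that the inhibitors bind went mostly downward. Of 12 tested, 9 fell and 1 rose on day 2.5, where 20.7% of all tested genes fell, and 5 fell on day 2, where 3.9% did. On day 2, 0 rose by edgeR or DESeq2, also at an unadjusted p under 0.05. They had a median log2 fold change of -0.21 on day 2.5 and -0.14 on day 2, against -0.0096 and -0.0049 over all tested genes. Cyclin D1 (Ccnd1), a partner of CDK4 and CDK6, averaged 91.5 ± 3.36 CPM in day 2.5 Trim33-deficient bodies and 137 ± 11.1 CPM in control bodies (log2 fold change -0.58, edgeR adjusted p = 0.000116). On day 2 it was 79.5 ± 6.87 CPM in Trim33-deficient and 116 ± 14.9 CPM in control bodies (-0.55, edgeR adjusted p = 0.00230). The other D cyclins were not lower on day 2.5. Ccnd3 averaged 86.5 ± 3.88 CPM in Trim33-deficient and 70.3 ± 4.54 CPM in control bodies, without overlap. Ccnd2 averaged 8.73 ± 0.330 CPM in Trim33-deficient and 7.77 ± 0.982 CPM in control bodies, with overlap. Cyclin E1 (Ccne1), a partner of CDK2, averaged 167 ± 11.2 CPM in day 2.5 Trim33-deficient and 243 ± 24.7 CPM in control bodies (-0.54, edgeR adjusted p = 0.000191). Cyclin E2 (Ccne2) fell as well, by 0.36 on day 2.5 and 0.54 on day 2 (edgeR adjusted p = 0.0236 and 0.0143), and so did cyclin A2 (Ccna2), by 0.33 and 0.18 (1.98e-05 and 0.0143). The mitotic kinase Cdk1 fell by 0.20 on day 2.5 (edgeR adjusted p = 0.00262). Among 8 genes that activate or hold the kinases, 2 fell and 0 rose on day 2.5 by edgeR and by DESeq2. Of all tested genes 20.7% fell and 22% rose by edgeR, and 1 of the 8 was higher at an unadjusted edgeR p under 0.05. On day 2, 0 passed by edgeR or DESeq2, and 0 had an unadjusted p under 0.05 in either. Those that fell were the inhibitory kinase Wee1 (-0.27, edgeR adjusted p = 0.00217) and the phosphatase Cdc25a (-0.18, edgeR adjusted p = 0.00526), while Pkmyt1 (0.16) and Cdk7 (-0.07) did not pass.

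The pocket proteins are the substrates through which the kinases release E2F. Among the 13 tested pocket protein, E2F and DP genes, 2 rose and 4 fell on day 2.5. This share was near the 42.8% of all tested genes that passed, 22% upward and 20.7% downward. On day 2 there was 1 rise and, by edgeR, 0 falls, where 5.94% of all tested genes rose and 3.9% fell. At an unadjusted edgeR p under 0.05, 2 were higher and 4 lower on day 2. DESeq2 gave 2 falls on day 2. So did edgeR without all 3 libraries that stood apart, where 11.2% of all tested genes passed in either direction. Rb1 averaged 58.0 ± 3.33 CPM in day 2.5 Trim33-deficient bodies and 30.1 ± 2.38 CPM in control bodies, 1.92-fold more (log2 fold change 0.94, edgeR adjusted p = 7.12e-07). On day 2 it was 40.2 ± 2.31 CPM in Trim33-deficient and 30.8 ± 2.87 CPM in control bodies (0.38, edgeR adjusted p = 0.0121). Rbl2, which encodes the related p130, averaged 12.99 ± 1.67 CPM in day 2.5 Trim33-deficient and 6.66 ± 0.373 CPM in control bodies (0.96, edgeR adjusted p = 1.8e-05). Both also passed the interaction (0.56 and 0.67, edgeR adjusted p = 0.0182 and 0.0415). E2f4 and E2f5, the E2F factors known to act as repressors with the pocket proteins, fell on day 2.5 (-0.30 and -0.24, edgeR adjusted p = 0.000114 and 0.0133). E2f6 missed the threshold on day 2 (-0.23, edgeR adjusted p = 0.0505).

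Among 12 genes for the breakdown of the inhibitor proteins, 4 fell and 1 rose on day 2.5, a share near the 42.8% of all tested genes. On day 2, 0 passed by edgeR or DESeq2, where 3 had an unadjusted edgeR p under 0.05, 2 of them upward. Dtl, the substrate receptor through which a CUL4 ligase marks p21, averaged 117 ± 5.84 CPM in day 2.5 Trim33-deficient and 159.7 ± 6.33 CPM in control bodies (log2 fold change -0.45, edgeR adjusted p = 3.24e-05). Skp2, the F-box protein for p27, averaged 70.6 ± 2.95 CPM in day 2.5 Trim33-deficient and 86.4 ± 4.34 CPM in control bodies (-0.29, edgeR adjusted p = 0.000829). Its scaffold Cul1 (-0.25) and the proteasome activator Psme3 (-0.17) also fell, and Ubac1, a subunit of another p27 ligase, rose (0.18), with edgeR adjusted p = 0.000971, 0.00450 and 0.0232.

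Of 16 other p53 targets, 14 rose on day 2.5, where 22% of all tested genes did, and 9 on day 2, where 5.94% did. Their median log2 fold changes were 0.66 on day 2.5 and 0.38 on day 2, against -0.0096 and -0.0049 over all tested genes. By edgeR and by DESeq2, 0 fell on either day, where 1 was lower at an unadjusted p under 0.05 on day 2.5 and 0 on day 2. Mdm2, the ligase that limits p53, averaged 432 ± 25.0 CPM in day 2.5 Trim33-deficient and 180.1 ± 17.9 CPM in control bodies (log2 fold change 1.26, edgeR adjusted p = 1.56e-06). Trp53inp1 reached 1209 ± 94.5 CPM in day 2.5 Trim33-deficient and 465 ± 65.6 CPM in control bodies (1.38, edgeR adjusted p = 1.74e-06). Btg2, an antiproliferative gene, and the death receptor gene Eda2r rose by 1.08 and 1.00 (edgeR adjusted p = 9.54e-07 and 8.97e-08). On day 2 the log2 fold changes of Mdm2, Trp53inp1, Btg2 and Eda2r were 0.61, 0.66, 0.69 and 0.48. Trp53 itself did not pass on either day (0.19 on day 2.5, edgeR adjusted p = 0.147; -0.01 on day 2, edgeR adjusted p = 0.959), and Sesn1 and Pmaip1 were the targets that did not pass on day 2.5. The list's counts without the 3 libraries that stood apart were 14 of 16 on day 2.5 and 8 of 16 on day 2. In that fit 45.5% and 11.2% of all tested genes passed in either direction on these days.

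Of 28 tested transcriptional regulators of the inhibitors, 12 rose and 5 fell on day 2.5, where 22% of all tested genes rose and 20.7% fell, and 8 rose and 2 fell on day 2, where 5.94% rose and 3.9% fell. Ezh2, a Polycomb methyltransferase, averaged 156 ± 4.203 CPM in day 2.5 Trim33-deficient and 208 ± 9.87 CPM in control bodies. Its log2 fold change was -0.41 (edgeR adjusted p = 2.33e-05), whereas its partner Suz12 rose (0.42, edgeR adjusted p = 1.36e-05). Other genes on the list went both ways on day 2.5, each without overlap. Bmi1 averaged 25.32 ± 0.355 CPM in Trim33-deficient and 15.04 ± 2.90 CPM in control bodies. Tbx3 averaged 15.52 ± 3.58 CPM in Trim33-deficient and 5.53 ± 2.05 CPM in control bodies. Ring1 was lower, with 7.93 ± 1.31 CPM in Trim33-deficient and 10.83 ± 0.789 CPM in control bodies. The part of these regulators in the rise of Cdkn2a was not tested. Mdm4 rose by 0.64 on day 2.5 (edgeR adjusted p = 9.03e-06). Klf4, a factor that can activate Cdkn1a, averaged 8.60 ± 1.57 CPM in day 2.5 Trim33-deficient and 2.10 ± 0.433 CPM in control bodies (2.00, edgeR adjusted p = 1.53e-05), and rose by 1.07 on day 2 (edgeR adjusted p = 0.0128).

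Genes beside the inhibitors did not all go the way of their neighbours. Mtap, next to Cdkn2a and Cdkn2b, fell on day 2.5, averaging 121 ± 2.34 CPM in Trim33-deficient and 143 ± 2.70 CPM in control bodies (log2 fold change -0.24, edgeR adjusted p = 0.000517). Of 9 tested genes of the imprinted domain of Cdkn1c, 2 rose and 2 fell on day 2.5, near the share of all tested genes. On day 2, 1 rose and 1 fell, where 5.94% of all tested genes rose and 3.9% fell. Ascl2, a trophoblast factor also on the trophoblast marker list, averaged 17.3 ± 1.67 CPM in day 2.5 Trim33-deficient and 5.01 ± 0.877 CPM in control bodies (1.8, edgeR adjusted p = 3.21e-05), and Cd81 rose by 0.58 (edgeR adjusted p = 9.54e-07). Nap1l4 and Phlda2 fell (-0.22 and -0.44, edgeR adjusted p = 0.000534 and 0.0125). Kcnq1ot1, the long noncoding RNA that silences the paternal Cdkn1c copy, did not pass (0.69, edgeR adjusted p = 0.0856). Without the 3 libraries that stood apart, 4 of the 9 rose and 2 fell on day 2.5, where 45.5% of all tested genes passed in either direction in that fit.

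**Figure D4:**
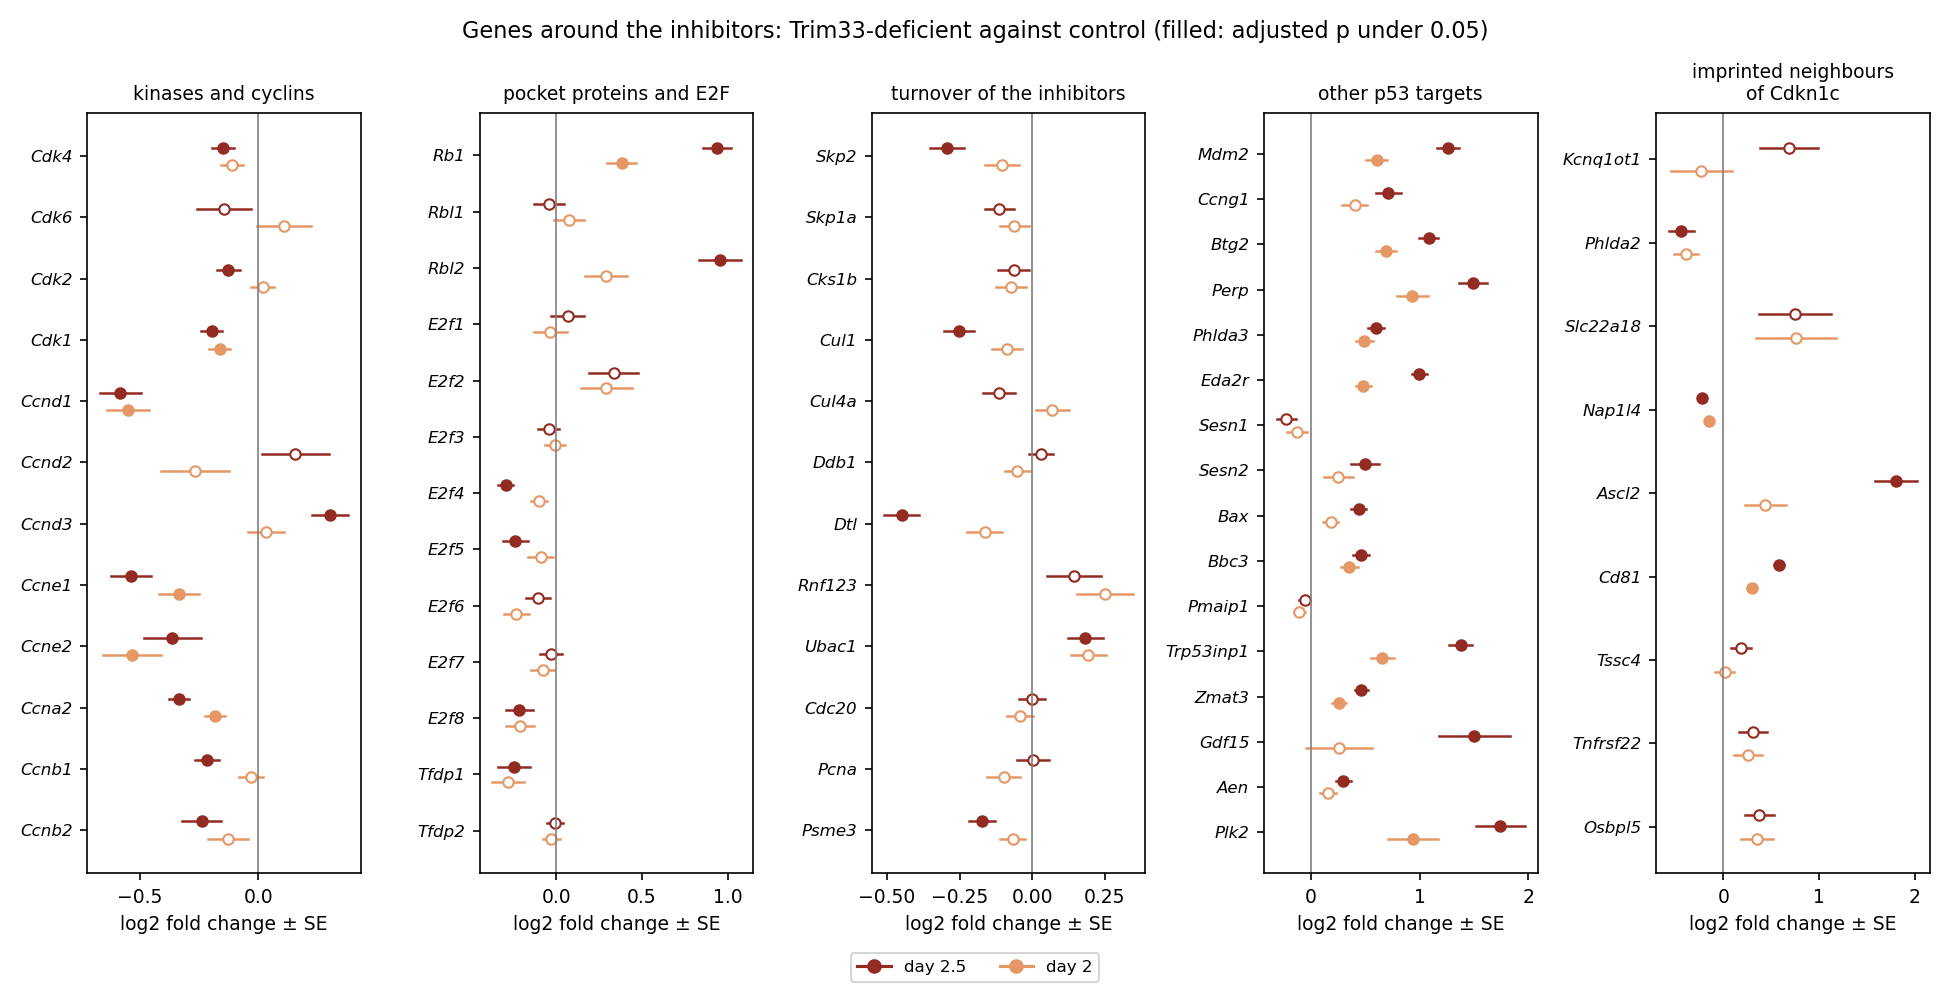
Log2 fold changes ± SE (horizontal axes, a scale of its own in each panel) of Trim33-deficient over control bodies on day 2.5 (dark) and day 2 (light) for the tested genes of 5 of the lists, from the edgeR fit, with filled points where the adjusted p was under 0.05. Most cyclins and kinases lie left of 0, Rb1 and Rbl2 lie near 0.95 on day 2.5, and 14 of the 16 p53 targets lie right of 0 and passed on day 2.5.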

How the data were processed

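RNA libraries of 12 embryoid body samples were deposited as 1 table of raw read counts each, with gene symbols as rows. Per the submitters' processing notes, the authors made the counts with STAR and HTSeq and the build was mm9. DESeq is named there too. No source used here gives the versions, annotation, strand setting or handling of multiply mapped reads. GENCODE vM21 places other genes on the opposite strand of part of the Cdkn1a and Cdkn1c exons. In those stretches, 273 of 3553 exon bases of Cdkn1a and 625 of 2039 of Cdkn1c, reads of the 2 strands cannot be told apart. The 5 closing rows that name no gene entered neither library sizes nor tests: 55.9 to 60.5% of reads fell in no feature and 0.144 to 0.189% were ambiguous. In day 2.5 Trim33-deficient replicate 1, 27 gene names turned into dates were restored by row position.

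CPM, log2 fold changes and p-values were obtained here with edgeR, run on the deposited counts, version 4.0.16 (R 4.3.3): TMM factors, filterByExpr by group (minimum count 10), and 4 group means fitted by robust quasi-likelihood to the 12 libraries (8 residual degrees of freedom, no replicate block), with Benjamini-Hochberg adjustment over 14356 genes per comparison and a threshold of 0.05. Each standard error is the log2 fold change divided by the root of its F statistic. DESeq2 1.42.0, other size factors and filters, a replicate block and leave-one-out fits were alternatives. Fits without libraries that stood apart were added after seeing the data. Simulated counts were used to test the scripts.

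The members and gene lists were chosen with earlier results of these data known. Genes named were all 7 inhibitors, Trim33, the 3 tested genes most correlated with each member, and from each list the genes with the smallest adjusted p (4 on day 2.5 and 2 on day 2). Trp53, Sesn1, Pmaip1, Kcnq1ot1, Ccnd2, Ccnd3, Bmi1, Ring1, Tbx3, Dnmt3b, Pou5f1 and Sox2 were named after their values were seen. The hypoxia and glycolysis list was added after seeing the data. Exon lengths are from GENCODE vM21 and promoters from RefSeq GRCm38.p6, both used apart from the mm9 counts. A check of replicate pairs found chi-square per degree of freedom of 1.92 or more in every pair, more than counting error alone gives. All 12 were kept as separate libraries. The check cannot tell biological from technical repeats, which can also differ by more than counting error.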

Additional observations from a re-analysis of the deposited data

Results flagged for a closer look

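The interaction of genotype and day singled out 2 inhibitors, because the effect of Trim33 loss differed between day 2.5 and day 2 by the edgeR test of that difference. For Cdkn2b the difference of log2 fold changes was 0.97 (1.5 on day 2.5 and 0.53 on day 2), and all 3 Trim33-deficient libraries lay above the controls on both days. For Cdkn1c it was 0.73 (0.54 on day 2.5 and -0.19 on day 2), with Trim33-deficient libraries above the controls on day 2.5 and overlapping them on day 2. Leaving out 1 library ended both calls for 8 of the 12 libraries.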

How the results depend on the processing

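On day 2.5 the rises of Cdkn1a, Cdkn1c, Cdkn2a and Cdkn2b passed under all 18 alternatives, and no call of a member reversed in any comparison. The fall of Cdkn1b was lost in 7 alternatives, also with no low-count filter (edgeR adjusted p = 0.0876). On day 2 Cdkn1a was lost with total counts only (edgeR adjusted p = 0.0520), which left 0 members and 709 genes called, against 1 and 1413. With a mean CPM of at least 1 on day 2, Cdkn2b passed too, 2 members in all. For time in Trim33-deficient bodies, total counts and no low-count filter each left 0 members. For time in control bodies the fit on the compared groups alone called 1384 genes, against 2313. Depth limits Cdkn2c and Cdkn2d, with at most 18 counts per library.

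In the fits without libraries that stood apart, Cdkn2d passed the low-count filter, so 7 members were tested. Without the 2 libraries rich in Rn45s, 814 genes (5.58%) were called on day 2. For time in Trim33-deficient bodies 2 members passed, where 17.9% of all tested genes did. Without the 2 high in hypoxia genes, day 2 gave 2 members and 2023 genes (13.9%). Time in Trim33-deficient bodies gave 3452 genes (23.7%, against 2300). The interaction gave 4 members and 1088 genes (7.46%), against 2 and 575. Without all 3, day 2 gave 2 members and 1638 genes (11.2%). Time in Trim33-deficient bodies gave 2 members and 3741 genes (25.5%), and the interaction 5 members and 1967 genes (13.4%). The cause of these shifts was not tested.

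Leaving out 1 library at a time gave 4 to 5 members and 4794 to 5910 genes for genotype on day 2.5, 0 to 2 members and 514 to 1345 genes on day 2, 0 to 1 members and 1101 to 2215 genes for time in Trim33-deficient bodies, 1 to 3 members and 1235 to 2393 genes for time in control bodies, and 0 to 3 members and 119 to 1217 genes for the interaction. Same-numbered libraries did not deviate together in every pair (correlations of -0.08 to 0.17 for genotype on day 2, -0.03 to -0.01 on day 2.5, 0.03 to 0.45 for time in control and -0.02 to 0.18 in Trim33-deficient bodies). For time in control bodies, differently numbered libraries gave -0.45 to 0.17, against 0.36 for replicate 1 and 0.45 for replicate 2. Replicate 3 gave 0.03, and replicate 2 was the control library high in hypoxia genes on both days. Whether shared numbers mark shared material across days was not tested. The labels do not settle this, and the numbers were not taken as pairs. With the replicate block, 1870 genes were called on day 2, 6541 on day 2.5, 2776 for time in control bodies, 2780 for time in Trim33-deficient bodies and 1169 for the interaction, with 1, 5, 2, 1 and 3 members.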
